A study of Mus musculus with 9 samples.

Results

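Matrix Gla protein (Mgp) and 3 adhesive glycoproteins of the extracellular matrix, fibronectin (Fn1), thrombospondin 2 (Thbs2) and Ccdc80, were followed across 9 dual-channel arrays that set castrated C57BL/6 mice against sham-operated partners. The members were every array feature that the platform annotation gives to 1 of these 4 symbols alone, after symbols were updated by gene ID. That gave 7 features out of 11552, and 4 genes out of 5827 named ones: 1 feature for Mgp, 2 for Fn1, 3 for Thbs2 and 1 for Ccdc80. The genes were chosen by their log ratios on these same 9 arrays, old against young and bone against marrow, so those values are a description and carry no test.

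Each array set RNA of a castrated mouse against RNA of its sham-operated partner, and a replicate is 1 such pair of mice. The groups were specimens labelled bone marrow from old mice (59 weeks, 3 arrays, here the old specimens), bone from young mice (17 weeks, 3 arrays) and bone marrow from young mice (17 weeks, 3 arrays). All castrated animals had been castrated at 7 weeks. The castrated mouse was in Cy5 on 6 arrays and in Cy3 on 3 arrays, 1 per group: old replicate 2, young bone replicate 3 and young marrow replicate 2, called swapped arrays below.

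Separation of marrow from bone is described for the young mice, and the labels do not say whether the old specimens also held bone. Age, the time since castration and the kind of specimen therefore cannot be told apart between the old specimens and either young group. Only ratios between 2 mice were used here, so no level of any gene is known in any tissue, and a tissue's identity cannot be checked by its markers' levels. Of the markers listed, 0 of 10 osteoblast and osteocyte genes and 1 of 12 chondrocyte genes had a testable feature. Whether a ratio reflects fewer cells of a type or less RNA per cell cannot be told apart in such bulk samples.

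Mgp is a small secreted protein of cartilage, vessel walls and connective tissue that is made active by vitamin K dependent carboxylation of glutamate residues, and mice without it calcify their arteries and growth plate cartilage. It binds bone morphogenetic proteins (BMPs) and keeps mineral from forming in soft matrix. Fibronectin is assembled into fibrils that cells grip through integrins, thrombospondin 2 is a matricellular protein that tempers angiogenesis and collagen fibril assembly, and Ccdc80 is a secreted protein that promotes cell adhesion and has been studied in fat cells.

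All values are deposited log ratios, read as log2. They were read first as castrated over sham, the likely reading since the labels describe every array as castrated against sham, so that a value below 0 means less signal in the castrated mouse. The sources used here do not state the direction, and the main results of the members and the differences named for other genes are also given under the channel reading, which takes Cy5 over Cy3 and turns the sign of the swapped arrays; values on single arrays and group means of the other genes stand as deposited. Between 8290 and 10995 features had a value per array, 8885 were tested across the series and 7544 had a value on all 9 arrays. On 8 arrays the values spread over features with an SD of 0.192 to 0.294, while old replicate 1 stood apart at 0.454. All 7 member features were tested; 6 of them had a value on every array, and the Thbs2 feature 4020 lacked young marrow replicate 3.

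Mgp was the gene with the lowest ratio in the old specimens. Its log2 ratio was -1.55, -1.21 and -0.80 on old replicates 1, 2 and 3. On the young bone arrays it was 0.13, 0.22 and -0.16, and on the young marrow arrays -0.14, -0.20 and -0.18. All 3 old arrays, the swapped one included, lay well below every young array, and the young arrays stayed near 0. The mean was -1.19 ± 0.38 in the old specimens, 0.06 ± 0.20 in young bone and -0.17 ± 0.03 in young marrow (SD, n = 3 each). On a linear scale the old mean corresponds to 0.439 times the sham signal.

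**Figure D1:**
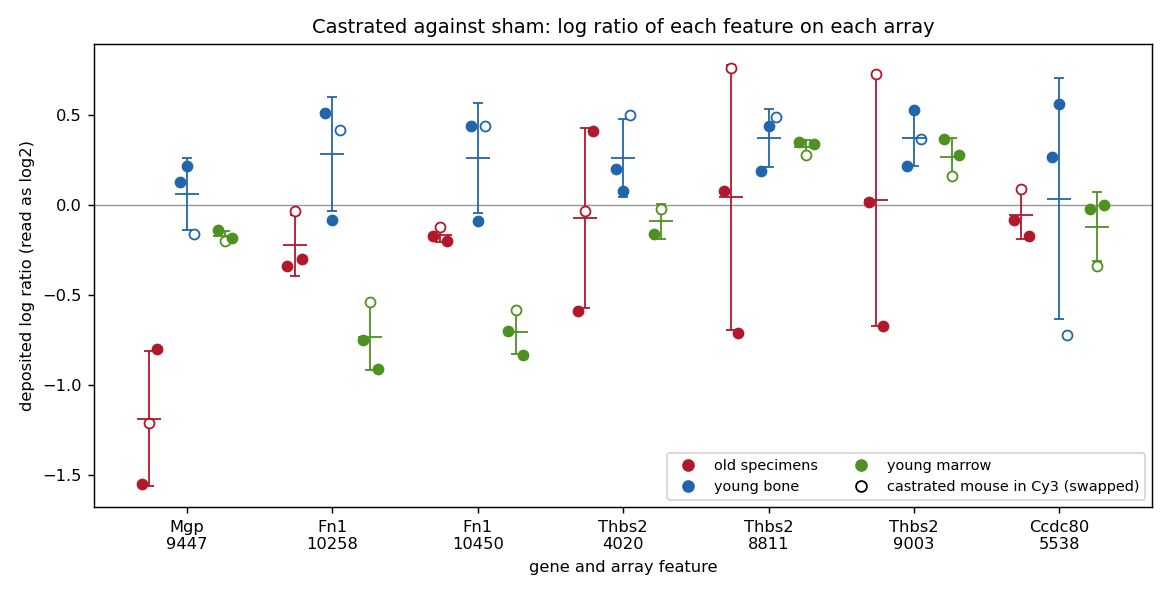
Deposited log ratio (read as log2, castrated over sham, y axis) of each of the 7 features (x axis) on every array, for old specimens, young bone and young marrow. Points are arrays, open points are swapped arrays, and bars give mean ± SD. Mgp is low on all 3 old arrays (-1.55 to -0.80), both Fn1 features are low on all 3 young marrow arrays (-0.91 to -0.54), and Ccdc80 is spread in young bone, from -0.72 on the swapped array to 0.56.

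The gap between the highest old array and the lowest young array was 0.64 against young bone and 0.60 against young marrow. The difference was -1.25 (SE 0.245) for old specimens minus young bone and -1.01 (SE 0.218) for old specimens minus young marrow. Among the 8885 tested features Mgp had the lowest castration effect in the old specimens. It was also the lowest in old specimens minus young bone, and the third lowest in old specimens minus young marrow.

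The position of Mgp on single arrays shows the same. It was the lowest of 10025 features on old replicate 1, the 7th lowest of 9170 on old replicate 2 and the 10th lowest of 8981 on old replicate 3. Old replicate 1 is the array with the wide spread, and without it the old mean of Mgp was -1.005. On the young arrays Mgp lay unremarkably within the distribution, with 15.9% to 79.4% of features below it. Its 3 young marrow values were unusually close to each other, with an SD of 0.031, and 96.2% of features had a larger SD there.

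Young bone minus young marrow was 0.24 for Mgp (SE 0.116), and the arrays of those 2 groups overlapped. The swapped young bone array was the only negative one of its group (-0.16), the opposite sign to both of its partners. Such a turned sign on the swapped array was found for 1076 of 7544 features (14.3%) in the old specimens, 2504 (33.2%) in young bone and 968 (12.8%) in young marrow. All 3 arrays shared 1 sign, as deposited, for 40.6%, 24.3% and 38.1% of these features in the same order of groups. Mgp was below 0 on all 3 old arrays, as 24.4 percent of the features were, and on all 3 young marrow arrays, as 17.2 percent were.

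The limma fit over all features called Mgp lower in the old specimens, where 0.124 percent of features were called lower (11 of 8885) and 0.732 percent in either direction. Since those values chose the gene, nothing is read from that call, which was lost without old replicate 2 and on the unswapped arrays alone. Under the channel reading the old swapped array turns to 1.21 while the others stay at -1.55 and -0.80. The old mean then is -0.38 ± 1.43 against 0.17 ± 0.05 in young bone and -0.04 ± 0.21 in young marrow, and the old arrays overlap both young groups.

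Of the members, fibronectin had the largest difference between the young tissues. Feature 10258 read 0.51, -0.08 and 0.42 on young bone replicates 1 to 3, against -0.75, -0.54 and -0.91 on young marrow replicates 1 to 3. Feature 10450 read 0.44, -0.09 and 0.44 in young bone, against -0.70, -0.58 and -0.83 in young marrow. Every young marrow array was below every young bone array on both features, and young bone replicate 2 was the one bone array that did not lie above 0.

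On the old arrays feature 10258 read -0.34, -0.03 and -0.30, and feature 10450 read -0.17, -0.12 and -0.20. These old values fall between the young groups, slightly below 0. The means of feature 10258 were -0.22 ± 0.17 in the old specimens, 0.28 ± 0.32 in young bone and -0.73 ± 0.19 in young marrow. Those of feature 10450 were -0.16 ± 0.04 in the old specimens, 0.26 ± 0.31 in young bone and -0.70 ± 0.13 in young marrow (SD, n = 3 each). In young marrow the means correspond to 0.602 and 0.614 times the sham signal.

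Young bone minus young marrow was 1.02 (SE 0.212) for feature 10258 and 0.97 (SE 0.191) for feature 10450, with gaps of 0.46 and 0.49 between the arrays. They ranked 7th and 9th highest of 8885 features in that difference. In the old specimens the ratio was also higher than in young marrow, by 0.51 (SE 0.145) and 0.54 (SE 0.076), with gaps of 0.20 and 0.38. Against young bone the old specimens stood at -0.51 (SE 0.208) and -0.43 (SE 0.178). There the arrays of feature 10258 overlapped, and those of feature 10450 were separated by 0.03.

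Within young marrow the Fn1 features were among the lowest of all. Feature 10258 was the 11th lowest of 8851 features on replicate 1, the 136th lowest of 9730 on replicate 2 and the 10th lowest of 8290 on replicate 3. Replicate 2, the swapped array, thus held the weakest of the 3 values and the same sign. The castration effect of the 2 features in young marrow was the 15th and 18th lowest of 8885.

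Both Fn1 features were called lower in young marrow by limma, where 0.113 percent of features were called lower (10 of 8885), and nothing is read from those calls, which were lost without any 1 of the young marrow arrays. Under the channel reading the young bone means were 0.00 ± 0.47 and -0.03 ± 0.44, against young marrow means of -0.37 ± 0.80 and -0.32 ± 0.78. The difference between the young groups was then 0.38 (SE 0.533) and 0.29 (SE 0.518), and the arrays overlapped. So the separation of bone and marrow in Fn1, like the low old ratio of Mgp, is present under the castrated-over-sham reading and not under the channel reading.

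**Figure D2:**
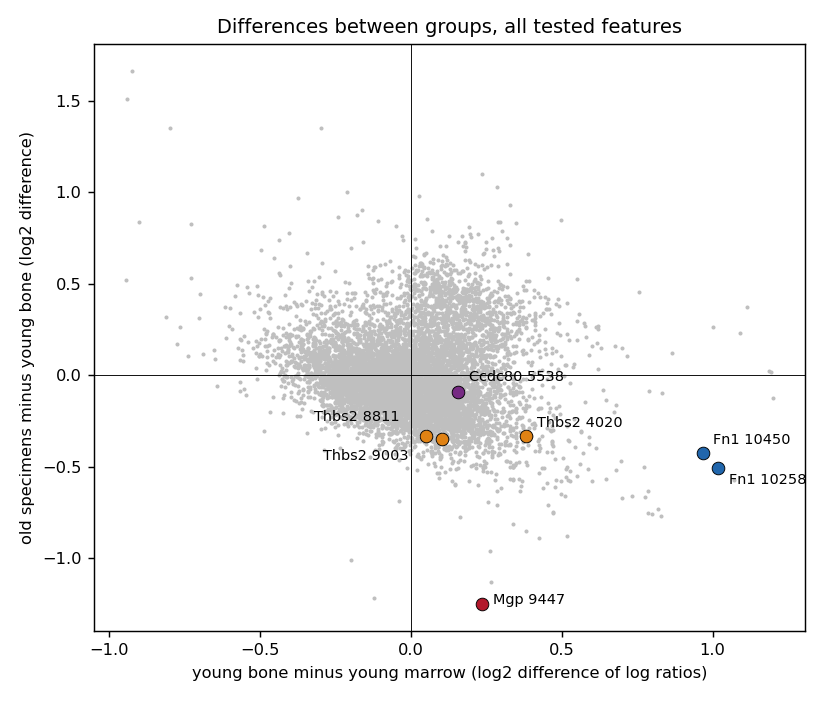
Young bone minus young marrow (x axis) against old specimens minus young bone (y axis), both as fitted log2 differences of the castrated-over-sham ratios, for 8885 tested features (grey) and the 7 member features (coloured). Mgp lies at the bottom edge (-1.25 on the y axis), and both Fn1 features lie far to the right (1.02 and 0.97). The x and y values share the young bone arrays, so the slope of the grey cloud is no result.

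Both Fn1 features carry the same sequence record, as do the Thbs2 features 8811 and 9003. In each pair the features lie 192 feature numbers apart, the most common distance on this array (349 of 602 pairs of 1 record). Whether they are repeat spots of 1 clone is not stated. The 2 features of such a pair share the RNA, the array and the record, and they are not independent measurements of the gene.

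Over the 9 arrays the Fn1 features followed each other with r = 0.986 (Spearman 0.962) and a mean absolute difference of 0.070. Thbs2 8811 and 9003 gave r = 0.984 (Spearman 0.954) and a mean absolute difference of 0.063. By r both pairs agreed more closely than most. Over 602 pairs of 1 record from 473 genes the quartiles of r were 0.743, 0.894 and 0.959, and the median of the mean absolute differences was 0.074.

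The Thbs2 feature with another sequence record, 4020, did not follow them. Over the 8 arrays they share, r was -0.189 with feature 8811 (Spearman 0.024) and -0.182 with feature 9003 (Spearman -0.072), with mean absolute differences of 0.471 and 0.470. Among 1300 pairs of the same gene with different records, from 742 genes, the median r was 0.510, and 495 pairs (38.1%) had r under 0.3. Thbs2 is thus 1 of many genes on this array whose features disagree, and which of them follows the transcript is unknown.

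**Figure D3:**
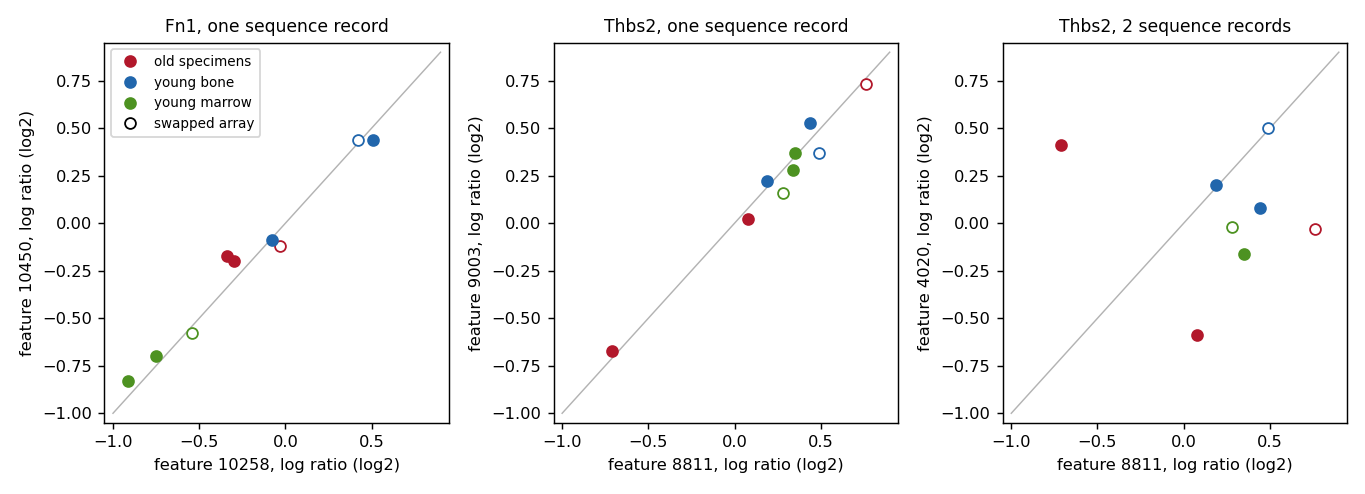
Log2 ratio of 1 feature against another of the same gene on each array, for Fn1 10258 and 10450 (left), Thbs2 8811 and 9003 (middle) and Thbs2 8811 and 4020 (right). Colours give the group, open points are swapped arrays and the line marks equal values. The pairs of 1 record lie along the line (r = 0.986 and 0.984), whereas Thbs2 4020 does not follow 8811 (r = -0.189).

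Thrombospondin 2 had positive ratios in both young tissues on the paired features. Feature 8811 read 0.19, 0.44 and 0.49 in young bone, and 0.35, 0.28 and 0.34 in young marrow. Feature 9003 read 0.22, 0.53 and 0.37 in young bone, and 0.37, 0.16 and 0.28 in young marrow. Each of these 2 features was above 0 on all 3 young bone arrays, as 10 percent of the features were. Each was also above 0 on all 3 young marrow arrays, as 20.9 percent were.

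The young bone means were 0.37 ± 0.16 for each of the 2 features, and the young marrow means 0.32 ± 0.04 and 0.27 ± 0.11 (SD, n = 3 each). The young groups overlapped, and young bone minus young marrow was 0.05 (SE 0.095) and 0.10 (SE 0.108). In young bone the effects ranked 108th and 126th highest of 8885, and in young marrow 207th and 323rd highest.

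The old specimens did not share a direction. Feature 8811 read 0.08, 0.76 and -0.71 on old replicates 1 to 3, and feature 9003 read 0.02, 0.73 and -0.67. Replicate 2, the swapped array, was high and replicate 3 low by about the same amount, so that the means were 0.04 ± 0.74 and 0.03 ± 0.70. Only 1.58% and 1.94% of features had a larger SD in the old specimens. Under the channel reading the old means were -0.46 ± 0.47 and -0.46 ± 0.42, the young bone means 0.05 ± 0.48 and 0.13 ± 0.46, and the young marrow means 0.14 ± 0.36 and 0.16 ± 0.28.

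Feature 4020 gave another picture for the old mice and for young marrow, where both of its values were below 0. It read -0.59, -0.03 and 0.41 on the old arrays, 0.20, 0.08 and 0.50 in young bone, and -0.16 and -0.02 on young marrow replicates 1 and 2. On old replicate 3 this feature was the highest old value while 8811 and 9003 were the lowest. Its means were -0.07 ± 0.50 in the old specimens (0.19 without old replicate 1, n = 3 with it), 0.26 ± 0.22 in young bone (n = 3) and -0.09 ± 0.10 in young marrow (n = 2). Young bone minus young marrow was 0.35 (SE 0.143) over the 2 marrow arrays available, without overlap and with a gap of 0.10. Under the channel reading that difference was -0.003 (SE 0.234) with overlap.

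In Ccdc80 the swapped array of young bone stood far from its partners. It read -0.08, 0.09 and -0.17 in the old specimens, 0.27, 0.56 and -0.72 in young bone, and -0.02, -0.34 and 0.00 in young marrow. Both unswapped young bone arrays were clearly positive and the swapped one was the most negative value of the gene. The means were -0.05 ± 0.13 in the old specimens, 0.04 ± 0.67 in young bone and -0.12 ± 0.19 in young marrow (SD, n = 3 each), and all groups overlapped. Only 0.477% of features (36 of 7544) had a larger SD in young bone.

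Under the channel reading the 3 young bone values of Ccdc80 become 0.27, 0.56 and 0.72 and agree in sign. Their mean was 0.52 ± 0.23, and the fitted effect was the 12th highest of 8885 under that reading. The difference of old specimens minus young bone was then -0.63 (SE 0.135), the arrays did not overlap (gap 0.35), and the fitted difference was the 35th lowest. For old specimens minus young marrow it was -0.22 (SE 0.120) with a gap of 0.06. Ccdc80 and Mgp were the only members whose swapped young bone array had the opposite sign to both partners, and Ccdc80 did so in the old specimens too. Which reading holds cannot be told from the values of these members alone.

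**Figure D4:**
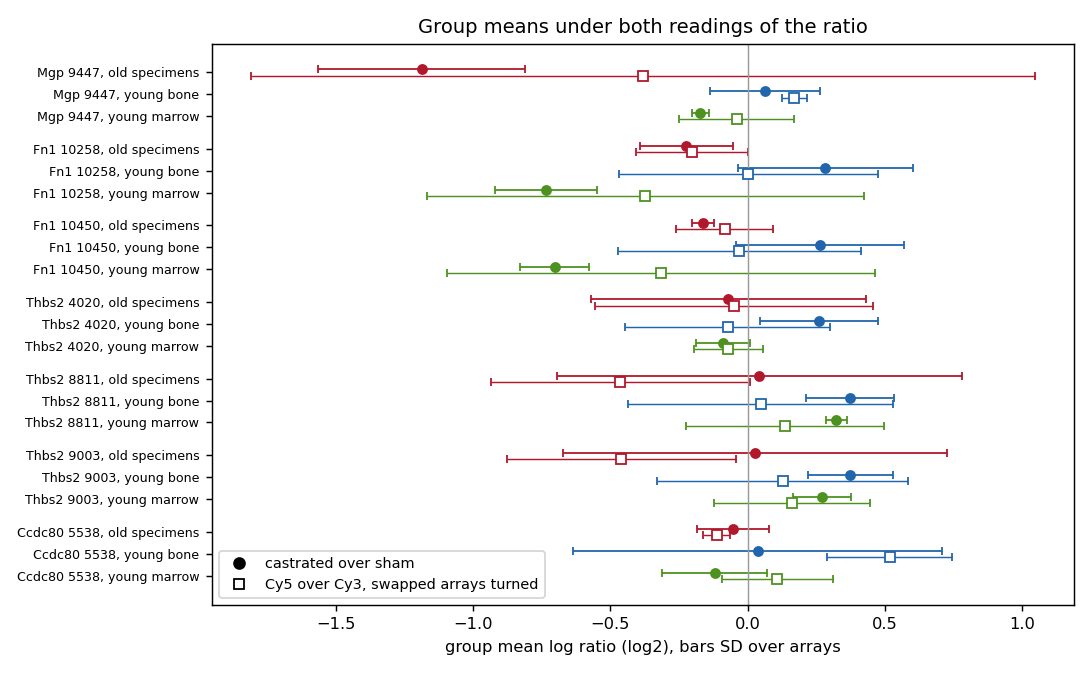
Group mean of each of the 7 features (y axis, by group) under both readings of the log2 ratio (x axis): filled circles castrated over sham, open squares Cy5 over Cy3, bars ± SD over arrays. Mgp in the old specimens moves from -1.19 to -0.38 with an SD of 1.43, Fn1 in young marrow from -0.73 and -0.70 to -0.37 and -0.32, and Ccdc80 in young bone from 0.04 to 0.52 with an SD that shrinks to 0.23.

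Counted over the members, arrays of young bone lay above those of young marrow on 2 of the 6 features with a value on all 9 arrays, both of Fn1, where 4.04 percent of 7544 features did so. Arrays of the old specimens lay below those of young bone on 2 of 6 features, Mgp and Fn1 10450, where 4.64 percent of features did so. They lay below young marrow on 1 of 6, Mgp, where 11.8 percent did so, and above young marrow on both Fn1 features, where 8.85 percent did so. The members were chosen for such separations, so nothing is read from these shares. By limma none of the 7 features was called in young bone (0.259 percent of features called in either direction), and 2 were called in young marrow, both of Fn1 (0.844 percent). None was called in young bone minus young marrow or in old specimens minus young marrow (0 percent each; 455 and 1292 features at an unadjusted p under 0.05), or in old specimens minus young bone (0.0113 percent, 589 features at an unadjusted p under 0.05).

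The order of the group means differed from gene to gene. For Mgp it ran old specimens, young marrow, young bone from low to high, and the young groups were not separated. For Fn1 it ran young marrow, old specimens, young bone, with young marrow separated from the other groups and the step from old specimens to young bone separated on 1 of 2 features. For Thbs2 8811 and 9003 and for Ccdc80 the neighbouring groups overlapped throughout. For Thbs2 4020 it ran young marrow (n = 2), old specimens, young bone. The old arrays overlapped both young groups there, and the young groups were separated.

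Across the 9 arrays the genes did not follow each other closely. Mgp and the Fn1 features gave r = 0.121 and 0.053, Mgp and Ccdc80 gave 0.179, and the Fn1 features and Ccdc80 gave -0.020 and -0.063. The highest values between genes involved Thbs2 4020 over 8 arrays, with 0.541 and 0.501 against Fn1 and 0.511 against Mgp. These are descriptions over arrays that share groups and dye orientations.

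The named features with the ratio pattern most like each member were taken by Pearson's r among 5569 named features with a value on all 9 arrays. For Mgp they were Xist, the RNA that coats the inactive X chromosome (r = 0.968, Spearman 0.950), Cep41, a ciliary protein (0.962, 0.895), and Ykt6, a SNARE protein of vesicle fusion (0.930, 0.90). The old means of Cep41 and Ykt6 were -0.17 and -0.20, so that of these 3 only Xist had an old mean on the scale of Mgp. For Fn1 both features had Rab11fip4, an effector of Rab11 in endosome recycling (r = 0.929 with 10258 and 0.897 with 10450) among the top 3. Sh3bp1 was there for both as well (0.891 and 0.921) and came first for 10450. Rab11fip4 averaged -0.51 in the old specimens, -0.04 in young bone and -0.74 in young marrow, and Sh3bp1 -0.20, 0.14 and -0.45.

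For Thbs2 8811 and 9003 the thrombin receptor gene F2r came first (r = 0.940 and 0.964), whereas for feature 4020 Pate4 came first (0.988 over 8 arrays). For Ccdc80 it was Ttc30b, a protein of intraflagellar transport (0.956). With group means subtracted the nearest feature changed for every member feature except Thbs2 9003, where F2r stayed first (0.970). For Mgp it was then Map3k8 (0.959), and Xist was no longer among the top 3. The 9 arrays fall into 3 groups, and each r is the highest among 5569, so these values are a description.

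Xist itself read -1.19, -1.13 and -0.98 on the old arrays, 0.07, 0.26 and -0.25 in young bone, and -0.17, -0.39 and -0.16 in young marrow. Its mean was -1.10 ± 0.11 in the old specimens, 0.03 ± 0.26 in young bone and -0.24 ± 0.13 in young marrow (SD, n = 3 each), the second lowest effect in the old specimens after Mgp. It was the only feature of 8885 called in old specimens minus young bone (-1.13, limma adjusted p = 0.045), a call that was lost when any 1 array other than old replicate 3 was left out (adjusted p 0.072 to 0.41). The labels used here do not state the sex of the animals. The array held 3 features of Y-linked genes, and all were taken, a set chosen after the neighbours of Mgp were seen. Uty read 1.01, 0.37 and 0.16 on the old arrays, -0.15, 0.40 and -0.07 in young bone, and 0.02, -0.39 and -0.14 in young marrow. Kdm5d averaged 0.06 in the old specimens, 0.28 in young bone and 0.06 in young marrow, and Eif2s3y -0.10, -0.13 and 0.01 in the same groups. The part of these values in the Mgp result was not tested.

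**Figure D5:**
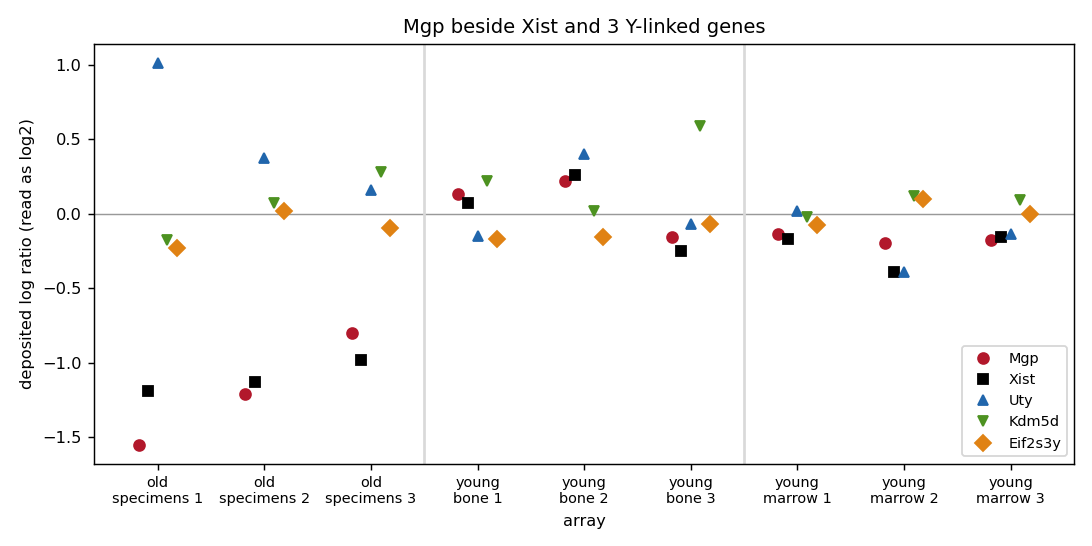
Log2 ratio (castrated over sham, y axis) of Mgp, Xist and the Y-linked genes Uty, Kdm5d and Eif2s3y on each array (x axis), by group. Colours and marker shapes give the gene, and swapped arrays are not marked. Mgp and Xist are both low on all 3 old arrays, and Uty is above 0 on all 3 old arrays (0.16 to 1.01). Kdm5d (-0.18 to 0.28) and Eif2s3y (-0.23 to 0.02) lie on both sides of 0 there.

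Few genes of the machinery that activates Mgp could be followed. Of 11 listed genes of vitamin K dependent carboxylation and its substrates 3 were tested, and none passed in any of the 6 comparisons. Ggcx, the carboxylase itself, averaged -0.21 in the old specimens, -0.45 in young bone and -0.23 in young marrow. Vkorc1l1, a vitamin K epoxide reductase, averaged -0.21, -0.17 and -0.05 in the same order, and Proc, the anticoagulant protein C, 0.11, -0.01 and 0.16.

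BMP signalling, which Mgp is known to restrain, was represented by 11 of 20 listed genes, and none passed by limma in any comparison. In old specimens minus young bone 9 of 11 differences were negative, with a median of -0.12 against -0.03 over all features. The transcriptional targets Id3 and Id1 stood at -0.41 and -0.39 and the signal transducer Smad1 at -0.39. Under the channel reading the same 3 genes stood at -0.02, -0.08 and -0.23, and the list median was -0.02. The Id3 difference shrank to -0.14 without young bone replicate 2 and to -0.19 without old replicate 2. In young bone minus young marrow the ligand Bmp7 stood at 0.63 and Id1 at 0.54, against 0.30 and 0.23 under the channel reading. The list median there was 0.13 against -0.003 over all features, and 0.01 under the channel reading.

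Of 19 listed receptors of fibronectin and thrombospondins 12 were tested, and none passed. Itga2b, the integrin chain of platelets and megakaryocytes, averaged 0.48 in the old specimens, 0.11 in young bone and 0.71 in young marrow, the opposite order to Fn1 within the young tissues. Its young bone minus young marrow difference was -0.60 (limma adjusted p = 0.87), -0.55 under the channel reading and -0.36 without young bone replicate 2. Itgb5, the partner of the alpha v chain, averaged -0.11, 0.13 and 0.45, and Sdc2, a heparan sulphate proteoglycan of the cell surface, averaged -0.07, 0.36 and 0.20, in the order old specimens, young bone and young marrow. The list median of old specimens minus young bone was 0.08 against -0.03 over all features, and 0.02 under the channel reading.

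Of 49 other matrix glycoproteins 24 were tested, and none passed in any comparison. In old specimens minus young bone 16 of 24 differences were negative, with a median of -0.12 against -0.03 over all features, and under the channel reading the median was 0.02. Ccn2, a matricellular growth factor partner, stood at -0.85, Tnc, the adhesion modulator tenascin C, at -0.71 and Sparc, the collagen binding osteonectin, at -0.69. The sign of Ccn2 turned under the channel reading (0.29), while Tnc (-0.38) and Sparc (-0.53) kept theirs. Single arrays weighed heavily on them. Without old replicate 2 the Ccn2 difference was -0.50, and the Sparc difference was -0.31 without young bone replicate 2 and -0.37 without old replicate 1.

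Of the relatives of Thbs2 on the list, Thbs1 and Thbs3 were tested, and neither passed between the young tissues. The listed Thbs4 and Comp had no testable feature. Thbs3 averaged -0.13 in the old specimens, 0.30 in young bone and -0.20 in young marrow, and Thbs1 averaged 0.16, 0.08 and 0.57. Young bone minus young marrow was 0.49 for Thbs3 and -0.49 for Thbs1, with limma adjusted p = 0.87 and 0.96. These were 0.09 and -0.48 under the channel reading.

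Of 29 matrix enzymes and their inhibitors 15 were tested, and 1 was called in 1 comparison. Mmp9, a gelatinase, was lower in castrated than in sham young marrow (-0.68, limma adjusted p = 0.011) and stood at -0.17 under the channel reading. That call was lost without any 1 of the young marrow arrays (limma adjusted p 0.11 to 0.28). It averaged -0.47 in the old specimens, -0.19 in young bone and -0.71 in young marrow. In old specimens minus young bone the list median was -0.24 against -0.03 over all features, and -0.06 under the channel reading. Serpinh1, the collagen chaperone, stood there at -1.01, the metalloproteinase inhibitor Timp2 at -0.72 and the stromelysin Mmp3 at 0.65, against -0.46, -0.32 and 0.69 under the channel reading. Mmp3 had a value on 2 old arrays, 1.17 on replicate 1 and 0.20 on replicate 3, and without replicate 1 its difference was 0.12. The Serpinh1 difference was -0.64 without that array.

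Of 15 collagens 7 were tested and none passed. Both chains of type I collagen, the main protein of bone matrix, had their highest mean ratio in young bone through replicate 2, where Col1a1 read 1.74 and Col1a2 read 2.07. Col1a1 averaged 0.05 in the old specimens, 0.83 in young bone and 0.66 in young marrow, and Col1a2 averaged 0.18, 0.89 and 0.44. In old specimens minus young bone the difference was -0.77 for Col1a1 and -0.71 for Col1a2, and -0.76 and -0.68 under the channel reading. Without young bone replicate 2 the young bone means were 0.37 and 0.30, below those of young marrow, and the differences from the old specimens were -0.32 and -0.12. Without old replicate 1 the Col1a2 difference was -0.46. Col5a2, a chain of the minor fibril collagen V, had a difference of 0.44, 0.07 under the channel reading and 0.26 without old replicate 1.

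Marker genes of other cell types were set beside these values, and none passed by limma in any of the 3 comparisons between groups. The median of 6 tested skeletal muscle genes (of 10) was 1.04, 0.16 and 0.31 on the old arrays, -1.36, -0.20 and -0.60 on the young bone arrays, and -0.08, 0.04 and -0.09 on the young marrow arrays. In old specimens minus young bone all 6 were positive, with a median of 1.35 against -0.03 over all features, and 0.57 under the channel reading. The median of 4 adipocyte genes (of 7) was 1.02, 0.78 and 1.45 on the old arrays, 0.55, 0.82 and 0.82 in young bone, and 0.55, 0.32 and 0.30 in young marrow. In the old specimens 3 of these 4 genes were called higher in castrated mice by limma (Fabp4, Car3 and Scd1), as were all 4 B lymphocyte genes (Cd79b, Vpreb3, Blk and Pou2af1), and none of them under the channel reading. Without old replicate 2 the calls of Fabp4, Car3 and Blk were lost (limma adjusted p = 0.24, 0.051 and 0.27). Scd1 was also called higher in young bone and in young marrow. So were Vpreb3, Blk and Pou2af1 in young bone and all 4 B lymphocyte genes in young marrow. Of all 8885 features 54 were called higher in the old specimens, 20 in young bone and 65 in young marrow, and 0 in each under the channel reading. Sox9, the only chondrocyte gene tested, read -0.26, 0.01 and -0.03 on the old arrays, 0.85, 0.27 and 0.20 in young bone, and -0.03, -0.09 and 0.02 in young marrow.

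Markers of vessels, stroma and blood cells gave smaller spreads between groups. The median of 3 smooth muscle genes (of 5) ranged from -0.13 to 0.03 on the old arrays, from -0.41 to 0.17 in young bone and from -0.09 to 0.03 in young marrow. The 5 endothelial genes (of 7) ranged from -0.32 to 0.13, from -0.01 to 0.12 and from 0.07 to 0.26 in the same groups, and the 8 stromal fibroblast genes (of 9) from -0.18 to 0.14, from -0.24 to 0.17 and from -0.01 to 0.19. The 3 megakaryocyte genes (of 7) ranged from 0.10 to 0.32, from 0.08 to 0.54 and from 0.29 to 0.62. The 2 macrophage genes (of 6) were below 0 on all 9 arrays (-0.49 to -0.13), as were the 3 granulocyte genes (of 9, -0.91 to -0.11), while the 4 B lymphocyte genes (of 8) were above 0 (0.61 to 1.25). The part of these cell type markers in the Mgp and Fn1 results was not tested.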

How the data were processed

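The deposited values are log ratios per feature on 9 dual-channel arrays, read as log2 ratios; the log base, direction, background correction, normalization and signal over background are not given in the sources used here. Per the labels, aminoallyl cDNA from total RNA was labelled with Cy3 or Cy5. No scaling was added, and precision is limited by the number of arrays. A feature was tested if each group had at least 2 arrays with a value and at least 1 swapped array had one (8885). A limma 3.58.1 fit (R 4.3.3) held 1 coefficient per group and a dye term, with exact standard errors under missing values, 5 residual degrees of freedom on complete features and Benjamini-Hochberg adjustment over all features at 0.05. The fit was tested on simulated data. Printed SEs of member differences come from the group SDs.

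Of 11552 features 8050 had 1 symbol, 672 several and 2830 none, and 7880 were matched by gene ID. The members, gene lists and tests were chosen with earlier results of these data known. Named genes were the members, the 3 features most like each, and the 3 genes with the largest difference per list and comparison, of which a part is printed; several features of a listed gene were averaged. Xist and the Y-linked genes came later. The labels do not say what replicate numbers share. Between old specimens and young marrow same-numbered arrays deviated together (r 0.60, 0.27 and 0.302), which meets the rule for pairing there. These arrays also share their dye orientation, replicate 2 being the swapped array of both groups. The part of the dye in these r was not tested. The mice of these groups differ in age, so a shared number is no shared mouse. The block changed no call in that comparison. Alternatives were the channel reading, no dye term, a replicate block, unswapped arrays only, centring, scaling, complete features and leaving out each array, the last added for listed genes after the data were seen.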

Additional observations from a re-analysis of the deposited data

Results flagged for a closer look

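Xist stood out by a difference between groups that passed the test across all features. The difference between old specimens and young bone was -1.13 for this RNA (limma adjusted p = 0.045), with all 3 old arrays below all 3 young bone arrays. Over the alternatives the adjusted p ran between 0.013 and 1, the highest under the channel reading (-0.54).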

How the results depend on the processing

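The count of called features depended on the processing. The castration effect in young bone was called for 23 features, and for 0 under the channel reading (606 at an unadjusted p under 0.05), 50 without the dye term, 1 on unswapped arrays only and 1 after scaling. In young marrow 75 were called, against 0 under the channel reading (67 at an unadjusted p under 0.05), 3 on unswapped arrays and 174 after scaling. In the old specimens 65 were called, against 0 under the channel reading (203 unadjusted), 13 on unswapped arrays and 13 after scaling. In old specimens minus young marrow 0 were called, and 2 after scaling or on complete features. Old specimens minus young bone gave 1, and 0 by limma under the channel reading (363 unadjusted), without the dye term (549 unadjusted) and on unswapped arrays (357 unadjusted). Leaving out 1 array at a time gave 1 to 80 features in young bone, 0 to 138 in young marrow, 10 to 1332 in the old specimens, 0 to 0 in young bone minus young marrow, 0 to 885 in old specimens minus young marrow and 0 to 31 in old specimens minus young bone; the highest counts other than 0 came without old replicate 3. Deviations from the group means of same-numbered arrays correlated at 0.60, 0.27 and 0.302 between the old specimens and young marrow. Different numbers gave -0.517 to 0.127 there. Same-numbered arrays of these 2 groups also share their dye orientation, and its part was not tested. Young bone and either other group gave -0.370 to 0.384 for same-numbered arrays. Replicates 2 and 3 differ there in dye orientation, so these r cannot tell whether the numbers pair the arrays. With the numbers as a replicate block 0 features were called in old specimens minus young marrow, as without it (1793 and 1292 unadjusted); 52 features were called in young bone, 119 in young marrow and 0 in old specimens minus young bone (984 unadjusted), and the Mgp and Fn1 calls were the same. The Mgp call in the old specimens was lost without old replicate 2, on unswapped arrays and under the channel reading. Without old replicate 3, and after scaling, Mgp was also called in both old minus young comparisons. The Fn1 calls in young marrow were lost without any 1 of the young marrow arrays, on unswapped arrays and under the channel reading. Of 21 member means, 11 moved by more than their SD under the channel reading. After centring 1 did (Fn1 10450 in the old specimens, -0.12), and after scaling 1 (Thbs2 8811 in young marrow, 0.39). Leaving out 1 array of a group cannot move its mean by more than the SD, so no count is given for that setting. The Ccdc80 mean in young bone, 0.037 over all its arrays, was 0.415 without replicate 3 and -0.225 without replicate 2. The cause was not tested.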
